A study of Mus musculus with 13 samples.

Results

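The choroid plexus epithelial genes described here are 10 genes, Ttr, Enpp2, Kl, Folr1, Kcnj13, Aqp1, Clic6, Slc4a5, Cldn2 and Otx2. They were taken by symbol from a tissue count table and a culture count table, with lines of a symbol summed, and all 10 were found in both tables, among 23003 symbols that the tables share. Transcripts were counted by RNA sequencing in 13 mouse libraries. In tissue, 4 libraries came from the hippocampus of 3xTg mice that had received adeno-associated virus 9 (AAV9) with Nurr1 and Foxa2, called N+F below, and 3 from 3xTg mice that had received control AAV9. The 3xTg line models Alzheimer disease through mutant human APP and tau transgenes that Thy1 elements drive in neurons, and the labels list amyloid beta as treatment for every tissue library. In culture, hippocampal and cortical glia of ICR mouse pups at postnatal day 1 had received N+F lentivirus with amyloid beta, control lentivirus with amyloid beta (the amyloid beta control), or control lentivirus and no amyloid beta (untreated), with 1 library for each of these 6 groups. Mouse age, the promoters that drive Nurr1 and Foxa2 in the vectors, and the number of animals behind a library are not stated in the labels.

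The choroid plexus is a fold of tissue in the brain ventricles whose epithelial cells secrete the cerebrospinal fluid and form the barrier between it and the blood, and the plexus of the lateral ventricle lies along the hippocampus. Its epithelium moves ions and water with channels and cotransporters, seals its cell borders with leaky tight junctions, and releases carrier proteins and enzymes into the fluid. Transthyretin, encoded by Ttr, carries thyroid hormone and retinol-binding protein and is among the most abundant transcripts of this epithelium. The genes are not limited to it: Enpp2 is also transcribed in oligodendrocytes, and Aqp1 in other epithelia and vessels.

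Tissue libraries held 10194437 to 25139406 counts and culture libraries 52189025 to 78273121. Tissue levels are CPM (counts scaled to a common total) after TMM scaling, and culture levels are CPM of the library total, so levels were not compared between the tables. Neuron and hippocampal markers were present in all tissue libraries, and 3 hippocampal neuron markers fell with N+F (Fibcd1, Spink8 and Neurod6). The libraries labelled untreated glia went against that label in part. Their 10 neuron markers summed to 7882 CPM in hippocampal and 8665 CPM in cortical cultures, against 401 to 491 CPM in the other 4 culture libraries, and their 12 oligodendrocyte markers to 9898 and 8298 CPM, against 181 to 490 CPM. Astrocyte markers summed to 5641 to 9224 CPM in all 6 culture libraries.

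RefSeq promoters (GRCm38.p6) were at hand for 6 of the 10 genes, 9 promoters in all, and 4 are shown. Kcnj13 and Aqp1 differed between regions in culture with N+F. Cldn2 shares a motif near the start site with Kcnj13, and Otx2 encodes the transcription factor of the set. Each line gives the 250 bases before the start site, with motif matches in capitals.
Kcnj13, chr1:87394730-87394979, minus strand: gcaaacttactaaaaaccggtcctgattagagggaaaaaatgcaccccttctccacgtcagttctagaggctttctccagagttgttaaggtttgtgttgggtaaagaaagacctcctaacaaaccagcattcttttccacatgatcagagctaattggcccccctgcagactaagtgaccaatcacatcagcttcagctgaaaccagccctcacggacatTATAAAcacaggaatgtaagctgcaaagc
Cldn2, chrX:139800558-139800807, plus strand: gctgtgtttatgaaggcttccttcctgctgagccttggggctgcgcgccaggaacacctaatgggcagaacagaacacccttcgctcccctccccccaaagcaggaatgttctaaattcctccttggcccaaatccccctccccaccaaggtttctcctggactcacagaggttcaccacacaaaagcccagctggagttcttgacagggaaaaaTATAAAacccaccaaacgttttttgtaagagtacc
Aqp1, chr6:55336049-55336298, plus strand: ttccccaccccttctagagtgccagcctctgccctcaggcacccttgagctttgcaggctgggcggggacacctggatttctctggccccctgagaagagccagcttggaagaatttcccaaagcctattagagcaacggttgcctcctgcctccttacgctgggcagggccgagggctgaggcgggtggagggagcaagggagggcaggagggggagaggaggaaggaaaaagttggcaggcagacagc
Otx2, listed promoter 3, chr14:48665110-48665359, minus strand: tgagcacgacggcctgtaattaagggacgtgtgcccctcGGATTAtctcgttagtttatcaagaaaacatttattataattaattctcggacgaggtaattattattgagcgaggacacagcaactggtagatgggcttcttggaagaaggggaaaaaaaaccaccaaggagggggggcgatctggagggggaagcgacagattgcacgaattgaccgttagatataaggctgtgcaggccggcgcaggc
The 4 motif strings were searched on both strands from 250 bases before to 50 after the start, with no overlap between the matches found. TATAAA, the TATA box string, lay 29 bases before the Kcnj13 start and 35 bases before the Cldn2 start. It also lay 192 bases before the start in Otx2 promoter 1 and, on the minus strand, 127 bases before the Slc4a5 start. Anywhere in the window it was in 4 of 9 promoters, against 13.6% of 32851 mouse promoters. TAATCC, the Otx string, was found in 1 of 9 promoters (7.06% of all), on the minus strand of the Otx2 promoter shown. TGTTTAC, a Foxa string, and AAAGGTCA, a Nurr1 string, were found in 0 of 9 (3.65% and 1.51% of all). A match is a string of letters in this window and was not tied to binding.

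The question in tissue was whether N+F AAV9 changed transcripts of 3xTg hippocampus, read here for the choroid plexus epithelium. None of the 10 genes passed the test, and their N+F and control ranges overlapped, because N+F library 4 had high levels and the other N+F libraries mostly lay below the controls. Ttr was at 241, 830.1, 153 and 3900.5 CPM in N+F libraries 1 to 4, against 2829.8, 2784 and 1115 CPM in controls 1 to 3. N+F 4 was thus the highest of the 7 libraries, and the other N+F libraries were below every control. The fitted log2 fold change of Ttr was -0.81 ± 0.84 (SE, n = 4 and 3; edgeR adjusted p = 0.866).

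**Figure D1:**
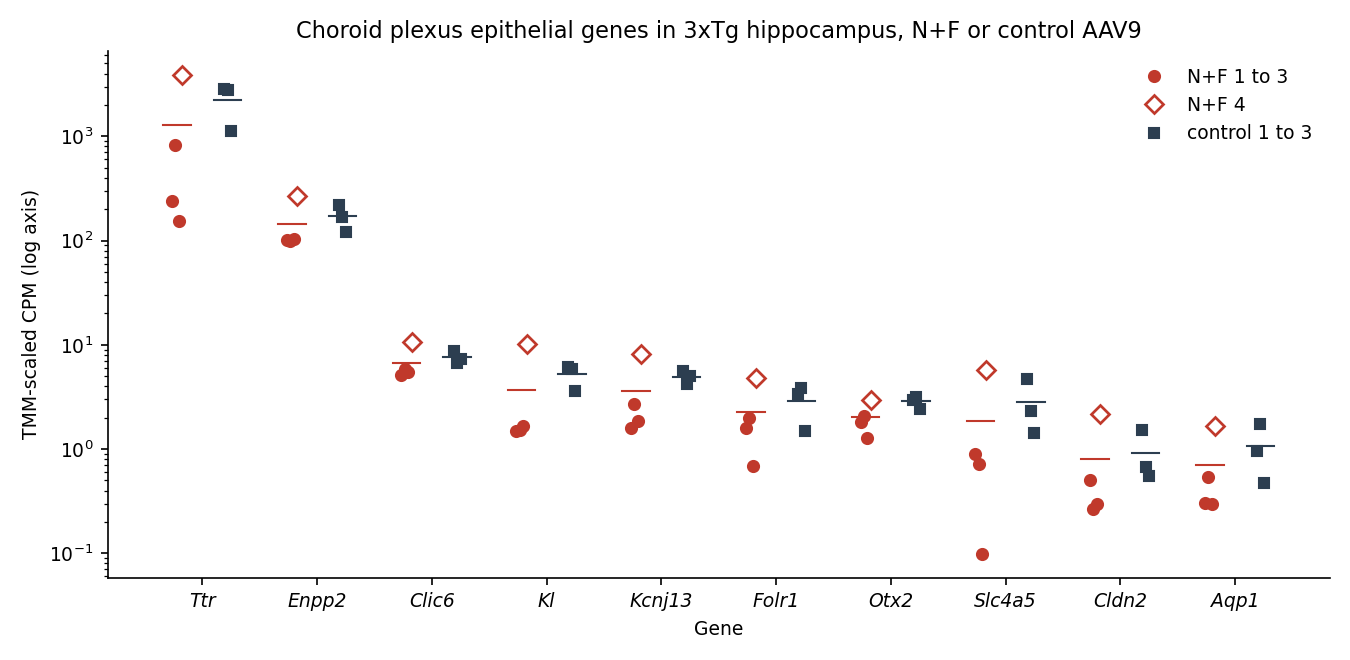
Levels of the 10 choroid plexus epithelial genes in each tissue library, in TMM-scaled CPM on a log axis, N+F AAV9 left of control AAV9, with 1 point per library, N+F library 4 as an open diamond and a line at each group's mean. N+F library 4 stands above the other N+F libraries in all 10 genes, with Ttr at 3900.5 CPM against 153 to 830.1 CPM.

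The other secreted or shed proteins had the same layout. Enpp2 encodes autotaxin, which makes lysophosphatidic acid, and was at 101, 100.01, 104 and 269.5 CPM with N+F, against 221, 169.5 and 120.5 CPM in controls. Kl encodes klotho, a co-receptor for FGF23 that is also shed, and was at 1.51, 1.52, 1.68 and 10.2 CPM with N+F, against 6.12, 5.85 and 3.64 CPM in controls. In both genes N+F 4 lay above all controls and N+F 1 to 3 lay close together below them. The log2 fold changes were -0.24 ± 0.34 for Enpp2 and -0.47 ± 0.60 for Kl (edgeR adjusted p = 0.909 and 0.902). Folr1, the folate receptor that carries folate across this epithelium, was at 1.61, 1.97, 0.691 and 4.799 CPM with N+F, against 3.40, 3.84 and 1.502 CPM in controls. Here control 3 lay among the N+F libraries, and the log2 fold change was -0.35 ± 0.54 (edgeR adjusted p = 0.923).

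Among channels and transporters, Kcnj13, the Kir7.1 potassium channel, was at 1.61, 2.68, 1.88 and 8.16 CPM with N+F, against 5.55, 4.18 and 4.98 CPM in controls. Slc4a5, a sodium bicarbonate cotransporter, was at 0.904, 0.716, 0.0988 and 5.68 CPM with N+F, against 4.73, 2.34 and 1.42 CPM in controls, where 0.0988 CPM is a single count. Again N+F 4 was highest of 7 and the rest of the N+F group below all controls. Clic6, of the chloride intracellular channel family, was at 5.12, 5.81, 5.53 and 10.6 CPM with N+F, against 8.70, 6.68 and 7.35 CPM in controls. Aqp1, the water channel of the apical membrane, was near the floor of counting, at 0.301, 0.537, 0.296 and 1.68 CPM with N+F, against 0.967, 1.75 and 0.474 CPM in controls. Control 2 was the highest library for Aqp1, and its groups overlapped also without N+F 4. The log2 fold changes of Kcnj13, Slc4a5, Clic6 and Aqp1 were -0.44 ± 0.48, -0.61 ± 0.81, -0.16 ± 0.27 and -0.53 ± 0.66 (edgeR adjusted p = 0.875 to 0.929).

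Otx2, the transcription factor that choroid plexus development needs, was at 1.81, 2.06, 1.28 and 2.96 CPM with N+F, against 2.97, 3.17 and 2.45 CPM in controls (log2 fold change -0.49 ± 0.35, edgeR adjusted p = 0.789). Cldn2, the pore-forming claudin of leaky epithelia, was at 0.502, 0.268, 0.296 and 2.16 CPM with N+F, against 1.54, 0.668 and 0.553 CPM in controls. Otx2 in N+F 4 lay just under 2 of the controls, while Cldn2 in N+F 4 lay above all 3. Cldn2 did not pass the count filter, and the difference in its mean log2 (CPM + 1) was -0.17 (two-sided exact permutation p = 0.629, where this design allows no p below 0.0571).

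Of the 9 genes that passed the filter, 0 passed the edgeR test, where 0.00644% of 15523 genes rose and 0.103% fell (0.11% in all). At an unadjusted p under 0.05 there were also 0 of the 9 by edgeR and 0 by DESeq2 (8.46% of all genes by edgeR). All 9 fold changes were negative, as were 50.8% of all, and their median was -0.47, against -0.00 for all genes tested. Nothing in the labels says that replicates were separate animals, so these p-values measure the spread between samples, which may be technical. In bulk tissue fewer cells of a type and less RNA per cell cannot be told apart.

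N+F library 4 had the highest level of the N+F libraries in 10 of 10 genes (27.4% of all genes tested) and of all 7 libraries in 8 of 10 (14.4%). It lay at least 2-fold above each other N+F library in 8 of 10 genes (1.11%), the exceptions being Clic6 and Otx2. Set against the mean of the other 3 N+F libraries, its level was 9.56-fold for Ttr, 6.47-fold for Kl, 6.07-fold for Cldn2, 4.44-fold for Aqp1, 3.97-fold for Kcnj13 and 1.72-fold for Otx2. Ttr took 0.0137% of counts in the lowest library and 0.398% in the highest. With Ttr set aside, the other 9 genes summed to 114, 116, 116 and 316 CPM with N+F, against 255, 198 and 143 CPM in controls. Most of that sum is Enpp2, at 101, 100.01, 104 and 269.5 CPM with N+F, against 221, 169.5 and 120.5 CPM in controls.

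Without N+F 4, the 3 remaining N+F libraries lay below all controls in 8 of 10 genes (8.13% of all genes), the exceptions being Folr1 and Aqp1. Then 8 of the 10 genes passed the count filter, Aqp1 and Cldn2 not, and the median log2 fold change was -1.14, against -0.01 for all genes. Ttr had -2.46 ± 0.57, Slc4a5 -2.32 ± 0.65, Kl -1.73 ± 0.34, Kcnj13 -1.25 ± 0.32 and Enpp2 -0.74 ± 0.19, the 5 genes with an unadjusted p under 0.05 (5.4% of all genes were lower at that p). Their edgeR adjusted p ran from 0.130 to 0.273, and 0 of 15316 genes passed, with 1544 at an unadjusted p under 0.05. With any other library left out the median lay between -0.62 and -0.22, but single genes leaned on single controls: without control 1 Slc4a5 had -0.00 and Enpp2 -0.02, in place of -0.61 and -0.24, Clic6 had -0.06 in place of -0.16, and without control 2 Aqp1 had -0.05 in place of -0.53 and Folr1 -0.13 in place of -0.35.

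**Figure D2:**
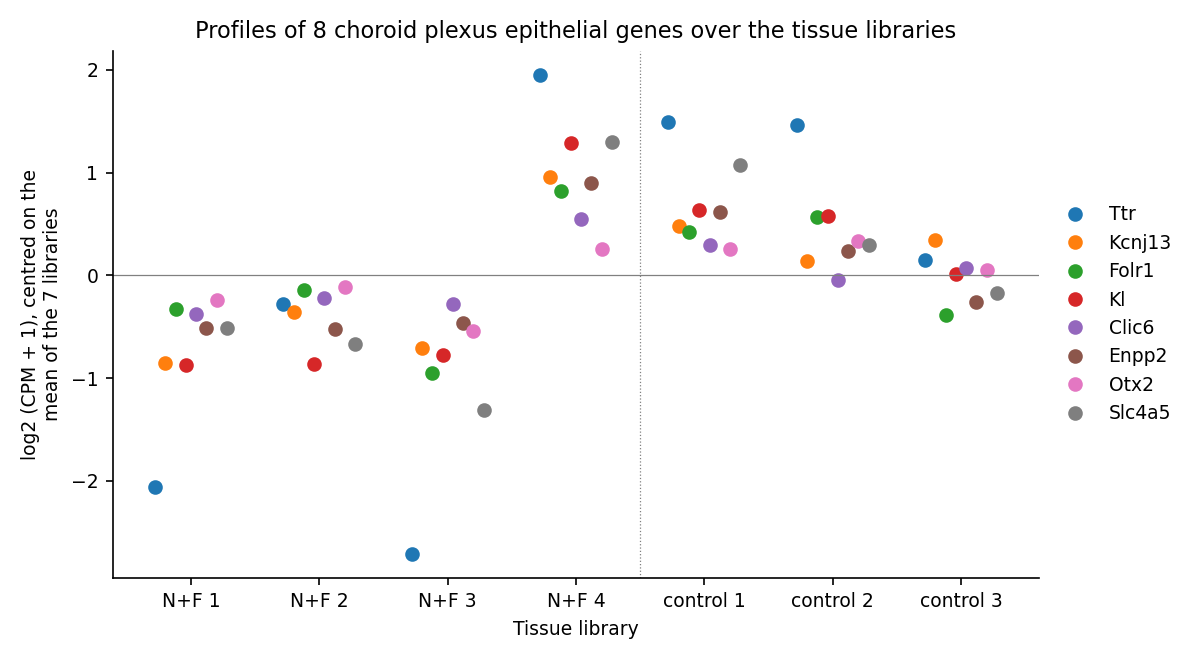
Profiles of the 8 choroid plexus epithelial genes with a mean of at least 1 CPM over the 7 tissue libraries, as log2 (CPM + 1) centred on each gene's own mean, N+F libraries left of controls, with 1 point per gene and library. All 8 genes lie above 0 in N+F library 4 and below 0 in N+F libraries 1 to 3, and Ttr spans the widest range.

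Per kilobase of exon, Ttr had the highest mean tissue level at 1428 CPM per kb, followed by Enpp2 at 26.8, Kcnj13 at 3.27, Clic6 at 1.82 and Folr1 at 1.11 CPM per kb. Otx2, Kl, Slc4a5, Aqp1 and Cldn2 followed at 0.565, 0.467, 0.391, 0.327 and 0.257 CPM per kb. The ranges of Ttr and Enpp2 over the 7 libraries stood apart from those below them, whereas from Kcnj13 on the ranges of neighbours overlapped. Genes were also ranked by how closely their profile over the 7 libraries followed that of Ttr, by the root-mean-square difference of centred log2 (CPM + 1). The closest were Ecrg4 (listed as 1500015O10Rik) at 0.80, Calml4 at 0.90, Krt18 at 0.96, Trpv4 at 1.03, Pcdhgb7 at 1.13, Kcne2 at 1.13, Ptprc at 1.14 and Sned1 at 1.14, against a median of 1.69 over 15040 genes. Of these 8, Ecrg4, Calml4, Krt18, Trpv4 and Kcne2 are in the list of other choroid plexus genes. That list holds 29 of the 15523 genes tested. Nearest to the mean profile of 8 members were Sned1 at 0.22, Fam122b at 0.25, Ttn at 0.26 and Spag17, a cilium gene, at 0.27. Kcne2, Ptpn14, Dnah9 and Tmem144 followed at 0.27 to 0.29, against a median of 0.71. Of the genes nearest to this mean profile, Kcne2 alone is in the list of other choroid plexus genes.

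A list of 32 other choroid plexus genes showed the same libraries with smaller differences. Of 29 tested, 0 passed the edgeR test, 21 were negative, and the median log2 fold change was -0.22, or -0.47 without N+F 4. N+F 4 was the highest N+F library in 27 of the 29 and at least 2-fold above each other one in 7. Calml4, a calmodulin-like protein, was at 3.92, 2.86, 2.47 and 21.5 CPM with N+F, against 13.3, 13.2 and 7.75 CPM in controls. Ecrg4, a secreted peptide precursor, was at 0.803, 2.42, 2.17 and 16.6 CPM with N+F, against 15.2, 9.11 and 4.03 CPM in controls. In both genes N+F 4 was the highest library and N+F 1 to 3 were below every control. Named by the size of their fold change among genes of at least 1 CPM were the cation channel Trpv4 at -1.04, the cytochrome oxidase subunit Cox8b at -0.96, Ecrg4 at -0.77 and the keratin Krt18 at -0.74, with edgeR adjusted p from 0.369 to 0.853.

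Genes that act with the members had 0 calls in each list. In the ion and water transport list 13 of 14 tested genes were negative with a median of -0.26, among them Aqp4, the astrocyte water channel, at -0.57, the carbonic anhydrase Car2 at -0.41, Slc4a7 at -0.40 and Fxyd1 at -0.37. In thyroid hormone, retinoid and folate handling 11 of 17 were negative with a median of -0.15, and the deiodinase Dio3 had -0.65, the retinol transporter Stra6 -0.38, the deiodinase Dio2 0.34 and the thyroid hormone receptor Thrb 0.46. Among partners of autotaxin and klotho 8 of 10 were negative with a median of -0.17, and Lpar3, a lysophosphatidic acid receptor, had 0.84 (20.8 ± 4.13 CPM with N+F and 11.7 ± 0.770 CPM in controls, SD, n = 4 and 3; edgeR adjusted p = 0.193). Fgfr1, the receptor that klotho joins, had -0.52 (edgeR adjusted p = 0.221), and Lpar6 and Plpp2 had -0.64 and -0.52. N+F 4 was at least 2-fold above each other N+F library in 0 of the genes tested in these 3 lists. Klb and Lpar5, which did not pass the count filter, did lie that far above. Klb was at 1.20 CPM in N+F 4, against 0.201, 0.358 and 0.0988 CPM in N+F 1 to 3. Lpar5 was at 0.240 CPM, against 0 CPM in each.

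Markers of other cells were read beside these values. Ependymal genes, of cells that line the same ventricles, had a median of 0.00 over 12 tested. N+F 4 was highest of the N+F libraries in 6 of the 12 (27.4% of all genes). It lay at least 2-fold above each other N+F library in 2 of the 12 (1.11%). The ependymal genes summed to 92.1, 50.9, 66.6 and 89.8 CPM with N+F, against 82.3, 86.6 and 74.0 CPM in controls. Oligodendrocyte markers, which bear on Enpp2, summed to 28445, 23811, 32021 and 22925 CPM with N+F, against 30329, 33038 and 23468 CPM in controls, so N+F 4, the highest library for Enpp2, was the lowest for them. Fibroblast and pial markers had a median of -0.38 with Col1a1 fallen (edgeR adjusted p = 0.0375), and hippocampal neuron markers a median of -1.31 with Fibcd1, Spink8 and Neurod6 fallen (edgeR adjusted p = 0.0267, 0.0436 and 0.0342). The part of these cells in the levels of the choroid plexus epithelial genes was not tested.

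In culture, 9 of the 10 genes were highest in the library labelled untreated hippocampal glia, the exception being Aqp1. Untreated glia names the 2 untreated libraries by their label, which their neuron and oligodendrocyte markers went against in part. The order among them by CPM per kb in that library was led by Ttr at 3469, Enpp2 at 233 and Kcnj13 at 21.3 CPM per kb. In the untreated libraries every hippocampal level exceeded the cortical one. Ttr was at 4113.8 CPM in untreated hippocampal and 468 CPM in untreated cortical glia, an 8.78-fold difference (8.67 to 8.90, 95% counting interval). Enpp2 was at 1348 and 375 CPM, Kl at 120.3 and 15.3 CPM and Clic6 at 58.2 and 7.17 CPM in untreated hippocampal and cortical glia. These genes were 3.60-fold, 7.86-fold and 8.12-fold higher in hippocampal glia.

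The lower genes followed the same order. Kcnj13 was at 27.0 and 4.16 CPM, Slc4a5 at 23.4 and 1.82 CPM, and Cldn2 at 21.9 and 1.94 CPM in untreated hippocampal and cortical glia. Folr1 was at 21.1 and 1.92 CPM, Aqp1 at 20.4 and 2.05 CPM, and Otx2 at 14.6 and 2.13 CPM. All 10 genes were therefore at least 2-fold higher in the untreated hippocampal than cortical library on log2 (CPM + 1), and 0 were lower. Of 14496 genes compared, 3.17% were higher and 2.3% lower. The 10 genes had a median log2 ratio of 2.88, against 0.00 for all genes. Of the 10, 9 were at least 4-fold higher, and they ranked from 17 (Ttr) to 128 (Enpp2) from the top. Since each group is 1 library, these are differences between libraries with no replicate check, and intervals cover counting error only. Both libraries held the neuron and oligodendrocyte markers given above, so the values are not those of glia alone. The part of cell makeup in these differences was not tested.

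**Figure D3:**
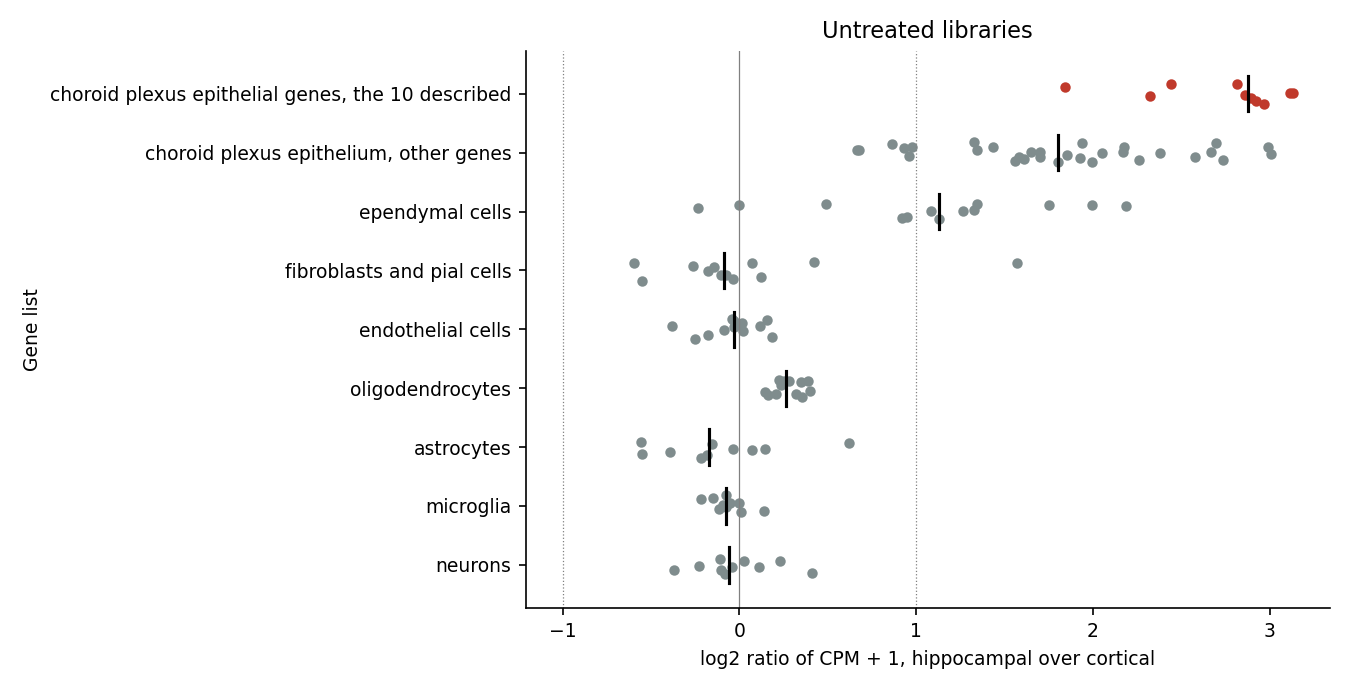
Log2 ratio of CPM + 1, hippocampal over cortical, in the 2 libraries labelled untreated glia, with 1 point per gene, gene lists down the page, a black bar at each list's median and dotted lines at 2-fold. The 10 genes lie between 1.84 and 3.13, and the medians of the neuron, oligodendrocyte, astrocyte and microglia lists lie between -0.17 and 0.27.

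Other lists moved with region too. Of 31 other choroid plexus genes that reached 1 CPM, 25 were at least 2-fold higher in untreated hippocampal glia with a median log2 ratio of 1.80. Ependymal markers were higher in 8 of 13 (median 1.13) and hippocampal neuron markers in 8 of 10 (median 2.09), whereas 0 of 10 neuron, 0 of 12 oligodendrocyte and 0 of 10 astrocyte markers were. In the amyloid beta controls 5 of the 10 choroid plexus epithelial genes reached 1 CPM, and of those 0 were 2-fold higher in hippocampal glia and 0 lower (4.17% and 2.13% of all genes).

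The comparison of amyloid beta control with untreated glia gave lower levels for every one of the 10 genes in both regions. Ttr had 6 and 4 counts, 0.0803 and 0.0659 CPM, in hippocampal and cortical amyloid beta controls, against 4113.8 and 468 CPM untreated. Its log2 ratio of CPM + 1 was -11.89 in hippocampal glia, the lowest of 14890 genes, and -8.78 in cortical glia, 14 from the bottom of 14786. Kl had 0 and 3 counts in the amyloid beta controls, against 8128 and 799 untreated, which made it at least 2996-fold lower in hippocampal glia, from the floor of 3 counts per library, and 310-fold lower in cortical glia (106 to 1506, 95% counting interval). Enpp2 was at 5.63 and 8.88 CPM in the amyloid beta controls, against 1348 and 375 CPM untreated, or 239-fold and 42.2-fold lower. All 3 were lower by more than an order of magnitude in both regions.

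**Figure D4:**
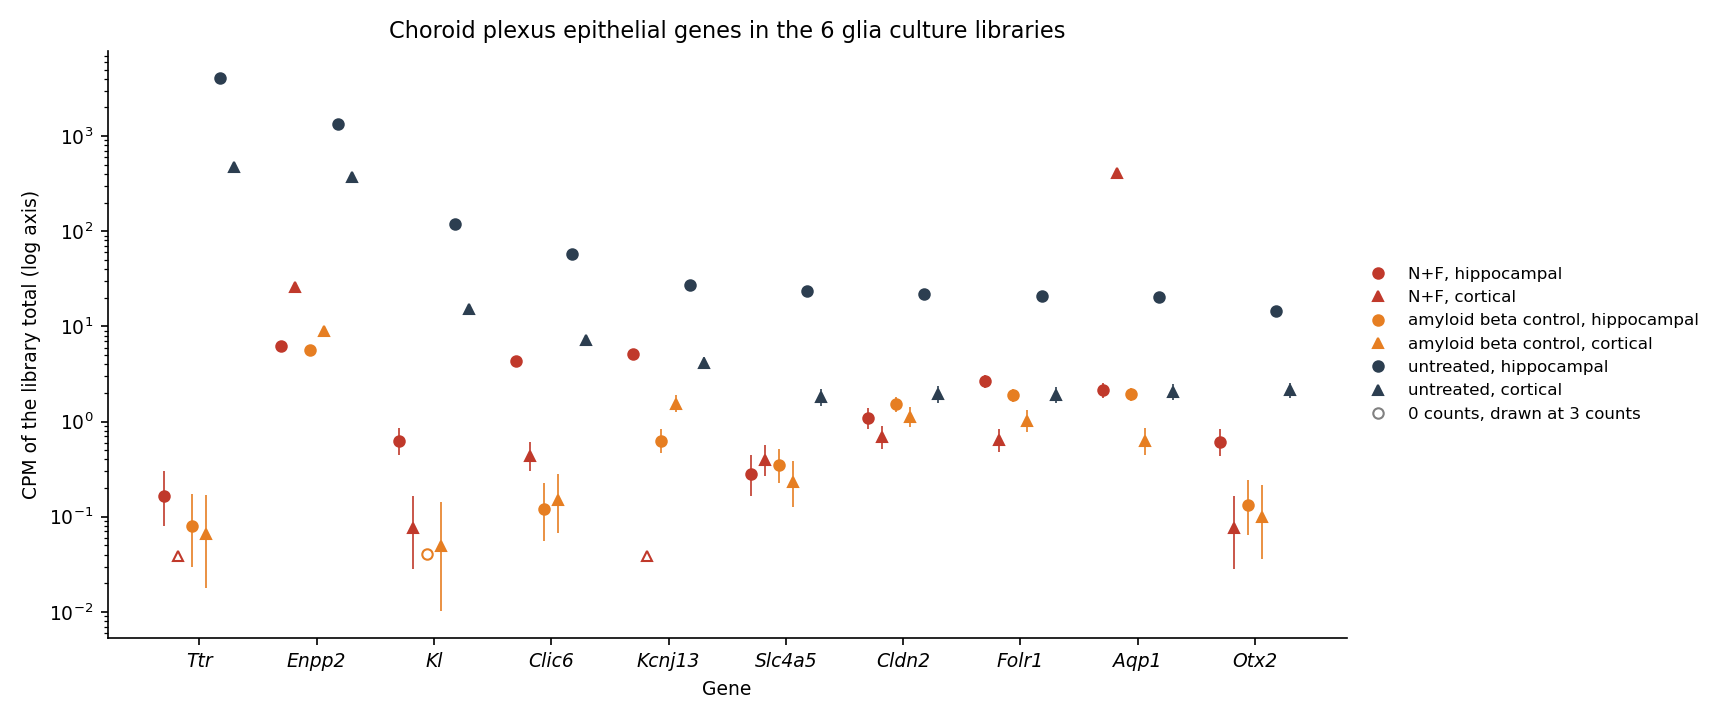
Levels of the 10 choroid plexus epithelial genes in the 6 culture libraries, in CPM of the library total on a log axis, with 1 point per library and 95% counting intervals as bars, open points marking 0 counts drawn at 3 counts. Untreated hippocampal glia is the highest library for 9 of 10 genes, and Aqp1 is highest in cortical glia with N+F, at 405 CPM.

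Clic6 had 9 and 9 counts in the hippocampal and cortical amyloid beta controls, 0.120 and 0.148 CPM, against 58.2 and 7.17 CPM untreated. Otx2 was at 0.134 and 0.0988 CPM, against 14.6 and 2.13 CPM untreated, and Slc4a5 at 0.348 and 0.231 CPM, against 23.4 and 1.82 CPM. All 3 were under 1 CPM in both amyloid beta controls. Kcnj13 was at 0.629 and 1.55 CPM, against 27.0 and 4.16 CPM untreated, which was 42.9-fold lower in hippocampal but 2.69-fold lower in cortical glia. Folr1, Aqp1 and Cldn2 were at 1.89, 1.93 and 1.53 CPM in hippocampal amyloid beta control, against 21.1, 20.4 and 21.9 CPM untreated. In cortical glia they were at 1.02, 0.626 and 1.12 CPM, against 1.92, 2.05 and 1.94 CPM untreated, and did not reach 2-fold on log2 (CPM + 1).

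Thus 7 of 10 genes were at least 2-fold lower in both regions and 0 higher, where 21.5% of 14516 genes were lower and 16.6% higher. In hippocampal glia alone 10 of 10 were lower (25.6% of all genes) and in cortical glia 7 of 10 (25.4%), with 0 higher in either (21% and 19.8%). An additive edgeR fit over the 6 libraries, with region and condition as terms and 2 residual degrees of freedom, put Ttr, Kl, Clic6, Enpp2, Otx2 and Slc4a5 past the threshold as lower (edgeR adjusted p = 0.00223 to 0.0430), where 17.2% of 16762 genes were. Its spread is how far the regions differed, not a replicate error. The same untreated libraries also held more neuron and oligodendrocyte transcripts: 9 of 10 neuron markers, 12 of 12 oligodendrocyte markers, 11 of 12 endothelial markers and 8 of 10 microglia markers were at least 2-fold lower in both regions. The part of these cells in the lower values was not tested, and amyloid beta and the cell makeup of the untreated libraries cannot be told apart.

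The 32 other choroid plexus genes did not all follow. Of 28 that attained 1 CPM in each pair, 17 were at least 2-fold lower in both regions and 5 higher. Htr2c, the serotonin receptor 2C, had 0 counts in both amyloid beta controls, against 70.1 and 38.1 CPM in untreated hippocampal and cortical glia. Trpm3, a cation channel, was at 3.01 and 1.68 CPM, against 104.7 and 41.2 CPM, and Igf2, a growth factor, at 3.69 and 0.428 CPM, against 119 and 60.1 CPM. Igfbp2, which binds insulin-like growth factors and is made by glia too, was at 3335 and 3598 CPM in the amyloid beta controls, against 61.5 and 38.4 CPM untreated. Astrocyte markers were higher in 4 and lower in 3 of 10, and ependymal markers higher in 5 and lower in 0 of 11. Foxj1, the regulator of motile cilia, had the largest rise, at 571 and 218 CPM in the amyloid beta controls, against 20.2 and 7.34 CPM untreated. In hippocampal glia alone ependymal markers were higher in 6 and lower in 2 of 13 (21% and 25.6% of all genes). The lower ones were Tmem212, at 0 CPM against 2.37 CPM untreated, and Hydin, at 0.669 CPM against 5.30 CPM. In cortical glia alone 6 of 11 were higher and 0 lower (19.8% and 25.4%).

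Among partner genes, transport genes were split, with 2 higher and 6 lower of 15. The bicarbonate transporter Slc4a10 was at 2.02 and 2.80 CPM in the hippocampal and cortical amyloid beta controls, against 256 and 317 CPM untreated, while Aqp4 was at 1403 and 1562 CPM, against 216 and 195 CPM. Kcna1, a neuronal potassium channel, had log2 ratios of -5.41 and -6.18, and Slc12a4, a potassium chloride cotransporter, 3.37 and 3.28. In thyroid hormone, retinoid and folate handling 2 were higher and 7 lower of 16. The thyroid hormone binding protein Crym had log2 ratios of -4.96 and -2.99, Rbp4 -3.09 and -4.06 and Aldh1a2 -3.10 and -3.67. Partners of autotaxin and klotho were higher in 4 and lower in 0 of 11, among them Plpp1 with log2 ratios of 2.40 and 2.69, Fgfr1 with 1.74 and 3.06 and Fgfr2 with 1.93 and 2.47. Lpar1 had -0.89 and -3.17.

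With N+F, 5 of the 10 genes attained 1 CPM in each region pair, and 0 of those moved at least 2-fold on log2 (CPM + 1) the same way in both regions relative to the amyloid beta control, where 2.07% of 13479 genes were higher and 0.119% lower. Ttr had 10 and 0 counts with N+F, against 6 and 4 in the amyloid beta controls, so it was at trace levels in all 4 libraries. Clic6, under 1 CPM in both cortical libraries and so not counted, was 35.8-fold higher in hippocampal and 2.93-fold higher in cortical glia (1.38 to 6.95, 95% counting interval) by CPM alone. This comparison shares the amyloid beta controls with the one above. The additive edgeR fit called 0 of 16762 genes for N+F (0% higher and 0% lower), so 0 of the 10, where Clic6 alone among them had an unadjusted p under 0.05, at 0.0204.

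Single regions did show differences. In hippocampal glia Kcnj13 was at 5.16 CPM with N+F, against 0.629 CPM without it, 8.20-fold higher (6.02 to 11.4, 95% counting interval). Clic6 was at 4.32 CPM with N+F, against 0.120 CPM, from 261 and 9 counts, 35.8-fold higher (18.6 to 79.2). Both stayed below untreated hippocampal glia, at 27.0 and 58.2 CPM. They were the 2 of 6 genes reaching 1 CPM that were at least 2-fold higher (5.6% of all genes), and 0 were lower (0.767%). Below that level, Kl had 38 counts with N+F, against 0, at least 15.7-fold higher from the floor of 3 counts, and Otx2 had 37 counts, against 10. Enpp2, Aqp1, Folr1, Cldn2 and Slc4a5 were at 6.19, 2.13, 2.65, 1.09 and 0.281 CPM with N+F, against 5.63, 1.93, 1.89, 1.53 and 0.348 CPM without N+F.

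In cortical glia Aqp1 was at 405 CPM with N+F, from 31662 counts, against 0.626 CPM in the control with amyloid beta, from 38 counts. That was 646-fold (471 to 914, 95% counting interval), with a log2 ratio of 7.96 that ranked 3 from the top of 13999. Enpp2 was at 25.8 CPM with N+F, against 8.88 CPM, 2.91-fold higher, while Kcnj13 had 0 counts with N+F, against 94, at least 40.4-fold lower from the floor of 3 counts. Aqp1 and Enpp2 were thus 2 of 5 genes called higher (12.9% of all genes) and Kcnj13 1 of 5 called lower (15.1%). Folr1, Cldn2, Clic6 and Slc4a5 were at 0.639, 0.690, 0.434 and 0.396 CPM with N+F, against 1.02, 1.12, 0.148 and 0.231 CPM, and Kl and Otx2 had 6 counts each, against 3 and 6. Aqp1 therefore stood apart from the other genes of the set in this library, where 8 of 10 were under 1 CPM.

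Markers of several other cell types moved with Aqp1 in the same library, those of fibroblasts and pial cells, endothelial cells and oligodendrocytes. The 12 fibroblast and pial genes summed to 8556 CPM in cortical glia with N+F, against 159 CPM in the cortical amyloid beta control, and 9 of the 10 that reached 1 CPM were at least 2-fold higher. Col1a1 was at 2894 CPM, against 47.0 CPM, Col3a1 at 2033 CPM, against 1.96 CPM, and Dcn at 329 CPM, against 0.494 CPM. The pial genes Slc6a13 and Slc47a1 were near 0, at 0.179 and 0.153 CPM with N+F. Of endothelial markers, which bear on Aqp1 as a gene of vessels, 5 of 7 were at least 2-fold higher and 1 lower, with a sum of 144 CPM with N+F, against 118 CPM. Among them Cdh5 was at 49.9 CPM, against 0.181 CPM, and Esam at 29.3 CPM, against 0.329 CPM, while Pecam1 was at 0.562 CPM, against 0.823 CPM, and Cldn5 had 0 counts in both. Of oligodendrocyte markers 7 of 10 were higher and 1 lower, with a sum of 489.8 CPM, against 181 CPM, and Mbp at 179.5 CPM, against 0.873 CPM. In hippocampal glia the 12 fibroblast and pial genes summed to 332 CPM with N+F, against 326 CPM, and Aqp1 was at 2.13 CPM, against 1.93 CPM. The part of these cells in the cortical Aqp1 level was not tested.

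**Figure D5:**
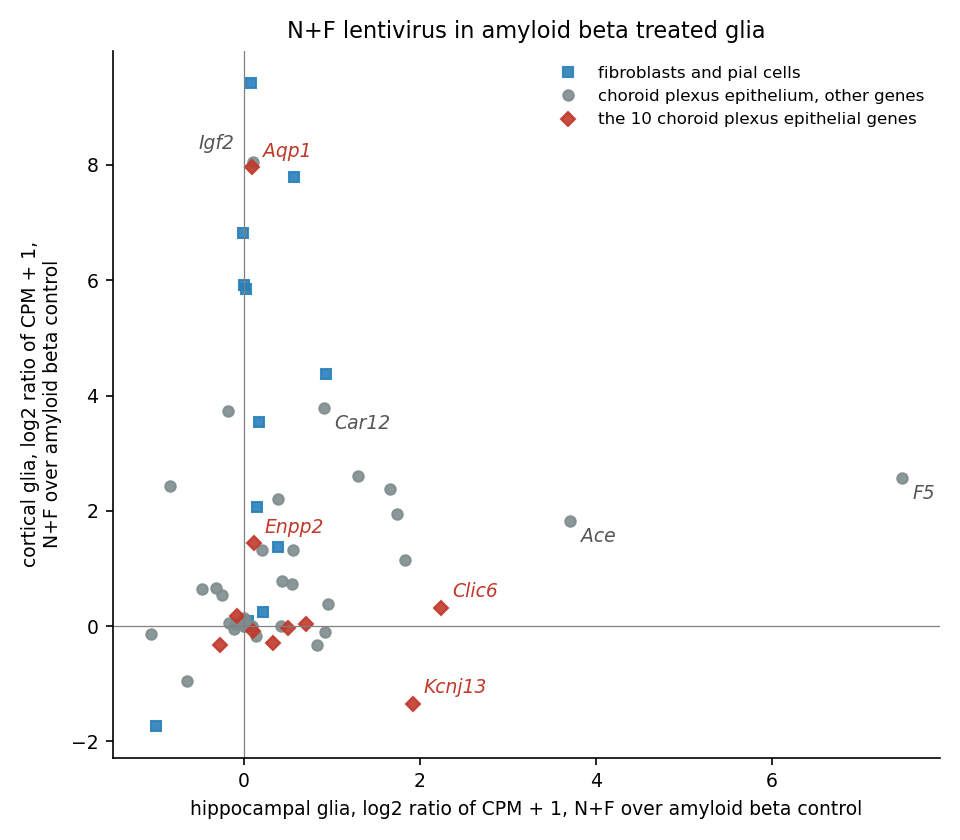
Log2 ratio of CPM + 1, N+F over amyloid beta control, in hippocampal glia (horizontal) and cortical glia (vertical), with 1 point per gene: red diamonds for the 10 choroid plexus epithelial genes, grey circles for other choroid plexus genes and blue squares for fibroblast and pial markers. Aqp1 lies at 7.96 on the cortical axis and 0.10 on the hippocampal axis, and Kcnj13 at -1.35 and 1.92.

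Of the other choroid plexus genes, 6 of 22 were at least 2-fold higher with N+F in both regions and 0 lower (2.07% and 0.119% of all genes). In cortical glia alone 13 of 24 were higher and 0 lower (12.9% and 15.1%), with a median log2 ratio of 1.23. In hippocampal glia alone 6 of 23 were higher and 1 lower (5.6% and 0.767%), with a median of 0.55. F5, coagulation factor V, was at 449 and 13.2 CPM with N+F in hippocampal and cortical glia, against 1.53 and 1.38 CPM without N+F. Ace, the angiotensin converting enzyme, was at 109.9 and 33.5 CPM, against 7.47 and 8.79 CPM. Igf2 was at 4.05 and 379.6 CPM, against 3.69 and 0.428 CPM, so it was high in the cortical library that was high for Aqp1, and Car12, a membrane carbonic anhydrase, was at 14.9 and 41.9 CPM, against 7.48 and 2.12 CPM. Kcne2, a potassium channel subunit of this epithelium, had 0 counts in both N+F libraries and both amyloid beta controls.

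Transport genes had 0 calls in both regions among 15, with log2 ratios in hippocampal and cortical glia of -0.36 and 2.11 for Kcna1, -0.03 and -1.50 for Slc4a2, 0.00 and -1.51 for Slc4a4 and 0.15 and 0.99 for Slc4a10. In thyroid hormone, retinoid and folate handling 2 of 16 were higher and 0 lower. Rbp4, the plasma retinol carrier that binds transthyretin, was at 16.9 and 2.07 CPM with N+F, against 0.0803 and 0 CPM in the amyloid beta controls. Aldh1a1 was at 148 and 42.7 CPM, against 13.3 and 39.4 CPM, and Aldh1a2 had log2 ratios of 0.93 and 4.38. Partners of autotaxin and klotho had 0 calls in both regions among 12, with 2.90 for Lpar1, -2.54 for Fgf1, 1.93 for Plpp2 and 2.04 for Lpar2 in cortical glia and 0.13, -0.35, 0.54 and 0.41 in hippocampal glia.

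Between regions with N+F, 3 of 6 genes that reached 1 CPM were at least 2-fold higher in hippocampal glia and 2 lower (17.3% and 7.06% of all genes). Kcnj13, Clic6 and Folr1 were the higher ones, at 5.16, 4.32 and 2.65 CPM in hippocampal glia and 0, 0.434 and 0.639 CPM in cortical glia. Aqp1 and Enpp2 were the lower ones, at 2.13 and 6.19 CPM in hippocampal glia and 405 and 25.8 CPM in cortical glia. The N+F libraries differed from the others in overall scale: with TMM scaling over the culture libraries the median log2 ratio of all genes was -0.00 in place of 0.12 for hippocampal N+F over control, to 0.01 in place of -0.16 for cortical, and to 0.04 in place of 0.33 between regions. With that scaling 6 of the 10 genes were lower in both regions for amyloid beta control over untreated, and 2 were higher and 2 lower between regions with N+F.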

How the data were processed

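Both files hold deposited counts, whole numbers for each symbol and library. Libraries were made with a SMARTER kit from 1.3 µg of Trizol RNA, per the labels' protocols. The submitters' processing notes name TopHat, HISAT2 and edgeR with no version, and the build hg19, although the symbols are those of mouse, and for that reason the build of the counts was not settled and coordinates come from RefSeq alone. Whether counting used strand is not stated in the labels. Of 36780 culture lines, 12238 repeated a symbol (Folr1, Enpp2 and Otx2 had 4 lines each), and a read counted in several lines would count more than once in the sum. Of 13 library columns 0 were unused.

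For tissue, edgeR 4.0.16 (R 4.3.3) was used (quasi-likelihood test, filterByExpr, TMM factors 0.895 to 1.11, Benjamini-Hochberg over 15523 genes, threshold 0.05). The biological coefficient of variation was 0.206, and the test was first tried on simulated counts. DESeq2 1.42.0 was an alternative. Culture ratios used CPM + 1, a call needing 2-fold and 1 CPM. Genes of lists were named by size of change, up to 4 per list and comparison (some genes named by this rule are not reported here), and genes of like profile were the 8 nearest. The members, lists, motifs and rules were chosen with earlier results of these data known. The culture markers named singly (Col1a1, Col3a1, Dcn, Slc6a13, Slc47a1, Cdh5, Esam, Pecam1, Cldn5, Mbp, Foxj1, Tmem212, Hydin) and Kcne2 were picked after their values were seen. So were Klb, Lpar5 and Slc47a1 in tissue. Older symbols matched Ecrg4, Plpp1, Plpp2 and Plpp3. Exon lengths came from the mouse GRCm38 annotation. No 2 replicates were alike within sampling noise (chi-square per gene 15.0 to 56.1).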

Additional observations from a re-analysis of the deposited data

Results flagged for a closer look

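In 6 of the 10 choroid plexus epithelial genes N+F library 4 lay far above the other 3 N+F tissue libraries by Dixon's gap ratio at its 95% level: Kcnj13 at 8.16 CPM, Kl at 10.157 CPM, Clic6 at 10.557 CPM, Enpp2 at 269.5 CPM, Slc4a5 at 5.68 CPM and Cldn2 at 2.16 CPM. Chance flags about 1 in 20 groups, and over all 15523 genes tested 5.40% were flagged, 1.18% with N+F 4 as the high library. In culture Kcnj13 moved opposite ways with N+F over amyloid beta control, with a log2 ratio of 1.92 in hippocampal and -1.35 in cortical glia. That difference was not tested, since each group is 1 library.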

How the results depend on the processing

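Of the choroid plexus epithelial genes 0 passed the tissue test under every alternative run, and all 116 fold changes were negative (adjusted p 0.0767 to 1.00). The series-wide counts moved, for causes not tested. Genes past the tissue test numbered 17 (1 higher, 16 lower, 4 in the other lists) in edgeR, 145 (68 higher, 77 lower, 10 in the lists) with DESeq2, 29 (2 higher, 27 lower) with no count filter, and 0 higher with library totals or upper quartile scaling. Leaving out each library gave 0 to 29 calls (0 to 1 higher, 0 to 28 lower, 0 to 5 in the lists). With any N+F library left out the number was 0, without control 1 it was 29, without control 2 it was 3 and without control 3 it was 1.

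Same-numbered tissue libraries had correlations of their deviations of -0.001, -0.083 and 0.125, where all pairs ran from -0.176 to 0.125. With 3 and 4 libraries this cannot settle whether the numbers pair them, and the labels do not say that they do. With the replicate number as a block 0 genes were called (0 higher, 0 lower, 0 in the lists), 1558 had an unadjusted p under 0.05, and 7 of 9 choroid plexus epithelial genes were among them with a median log2 fold change of -1.26. N+F 4 has no partner under that block.

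In culture, genes lower with amyloid beta in both regions numbered 4, against 7, with CPM + 5 or a 4-fold threshold. Genes higher in hippocampal than cortical amyloid beta control numbered 1 with CPM + 0.5 or the largest line of a symbol, against 0. With N+F that number was 1 with CPM + 5 or 4-fold, against 3, and the lower ones 1 at 4-fold, against 2. In tissue 1 count is near 0.1 CPM, which limits Aqp1, Cldn2 and Slc4a5.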
